A study of Mus musculus with 24 samples.

Results

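The change of the interferon-alpha (IFN-alpha) response between 1 h and 3 h was measured in NIH-3T3 cells, an immortalised mouse fibroblast line. For each probe set it was computed as a difference of differences, the IFN-alpha minus mock difference at 3 h less the IFN-alpha minus mock difference at 1 h. All probe sets above log2 4 on at least 3 of the 24 arrays entered, which gave 19305 of 45037, and 14 of the 24 arrays carry the contrast. The probe sets with a single gene name covered 9421 genes, each represented by its probe set with the highest mean signal.

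The study gave fresh medium with IFN-alpha, IFN-gamma or neither (mock) and extracted total cellular RNA after 1 h or 3 h. All 4 groups of the contrast also received 4-thiouridine (4sU), a nucleoside that cells build into newly made RNA. The 3 arrays of IFN-alpha at 3 h came from cells given 100 U/ml with 500 uM 4sU from 150 to 180 min, and the 3 arrays of mock at 3 h had the same 4sU without interferon. The 4 arrays of IFN-alpha at 1 h came from cells given 100 U/ml with 200 uM 4sU from 0 to 60 min, and the 4 arrays of mock at 1 h had the same 4sU without interferon. Cells given 100 U/ml IFN-gamma on the same schedules (3 arrays at 3 h, 4 at 1 h) serve for 1 further comparison. Mock cells at 1 h without 4sU (3 arrays) entered the fit and served as a control in 1 alternative. The 4sU dose and the labelling window differed along with the time, so the parts of all these in a difference between 3 h and 1 h cannot be told apart. The cells are 1 cultured line, and whether each replicate was a culture of its own is not given in the labels.

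IFN-alpha binds the receptor formed by Ifnar1 and Ifnar2, and the receptor's kinases Jak1 and Tyk2 phosphorylate STAT proteins. A complex that holds Stat2 and Irf9 then enters the nucleus and binds the interferon-stimulated response element (ISRE) in front of antiviral genes, while STAT homodimers bind the gamma-activated site (GAS). Among the first products are transcription factors such as Irf1 and inhibitors such as Socs3 and Usp18, so the set of transcribed genes can shift over hours. In fibroblasts the induced genes encode proteins that block viral RNA and protein synthesis, sense foreign nucleic acids and present peptides on MHC class I.

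Signals were GCRMA values on the log2 scale, and log2 4 was taken as background. Array medians lay between 2.95 and 3.11. The median SD over probe sets was 0.12 for IFN-alpha and 0.13 for mock at 3 h, against 0.36 for IFN-alpha and 0.40 for mock at 1 h, so differences at 1 h carry the larger error. The model used below shares a single spread per probe set over all groups, so its SEs and p-values do not carry this difference. Replicate 2 of the 1 h groups with 4sU had the actin 3′ probe set above the 5′ one by 2.99 to 3.43, a sign of shortened RNA, while the other arrays of the 6 groups with 4sU lay between 0.78 and 1.37. The 20 fibroblast and matrix genes had a median level of 11.64 and all lay above 4. Of 9 leukocyte markers only Cd14 (5.35) lay above 4, and of 10 epithelial and endothelial markers none did. The log2 of the summed signal of the leukocyte markers was 6.45 to 6.52 in IFN-alpha and 6.57 to 6.79 in mock at 3 h, and 6.25 to 6.66 in IFN-alpha and 6.23 to 6.77 in mock at 1 h.

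The IFN-alpha response grew between 1 h and 3 h for 180 probe sets, 0.932% of those tested, and shrank for 4, 0.0207%, by limma at a Benjamini-Hochberg adjusted p under 0.05. At 3 h alone 295 probe sets (1.53%) were higher than in mock cells and 5 (0.0259%) lower. At 1 h alone 50 (0.259%) were higher and 0 lower. At an unadjusted p under 0.05, 309 of the 19305 differed at 1 h, and 127 of these were lower. The 309 are a smaller share of those tested than the threshold of 0.05 itself. By gene, 104 of 9421 responses grew (1.10%) and 3 shrank (0.0318%), with a median over all genes of -0.06. At 3 h alone 169 genes were higher (1.79%) and at 1 h alone 29 (0.308%). RNA was pooled over the cells of a culture, so more RNA per responding cell and more responding cells cannot be told apart. With the replicate number as a block, 357 probe sets grew and 32 shrank, 532 were higher and 59 lower at 3 h, and 120 were higher and 15 lower at 1 h. Of the 184 probe sets called without the block, 183 were called with it. When only the arrays of the groups compared were fitted, 14 probe sets were called at 1 h and 506 at 3 h.

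From these calls 4 response types were formed. Late genes were higher at 3 h, not called at 1 h, and had a called increase of the response, and 84 genes did so. Early and rising genes were called at both times with a called increase, which held for 20 genes. Another 7 genes were called at both times with no called change between them, and 2 were transient, called at 1 h with a called decrease. The remaining 57 genes called higher at 3 h had no called change, so their timing was not settled. With the block the 5 counts were 175 late, 44 early and rising, 10 early with no called change, 4 transient and 85 not settled. Of the 84 late genes 69 stayed late under the block and 15 became early and rising, and of the 57 with unsettled timing 44 became late.

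**Figure D1:**
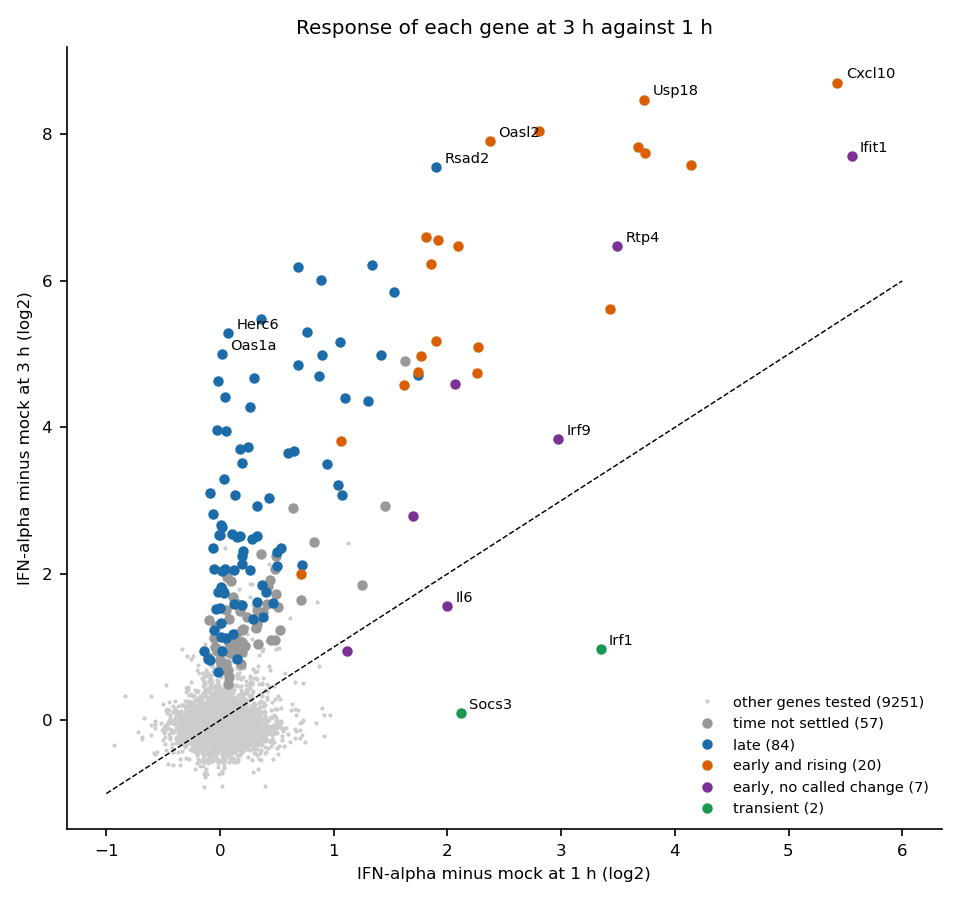
IFN-alpha minus mock at 3 h (y axis, log2) against the same difference at 1 h (x axis, log2), 1 point per gene tested, coloured by response type; the dashed line marks equal responses. Most late genes stand in a column near 0 on the x axis, early and rising genes lie above the line, and Irf1 and Socs3 lie below it, farther than Il6 and Map3k8.

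Irf1 and Socs3 were the 2 transient genes without the block. Irf1 encodes a transcription factor that binds ISRE-like sites. Its signal was 7.72, 7.63 and 7.69 in IFN-alpha cells at 3 h, against 6.71, 6.69 and 6.71 in mock cells at 3 h. At 1 h it was 9.34, 9.26, 9.19 and 9.45 in IFN-alpha cells, against 5.82, 6.52, 5.50 and 6.01 in mock cells. The groups did not overlap at either time, and the gap at 3 h was the smaller one. The response was 0.98 at 3 h (limma adjusted p 0.021) and 3.35 at 1 h (10.2-fold, adjusted p 3.21e-09). It therefore fell by 2.37 ± 0.29 (SE, adjusted p 2.58e-05), with 2.74 to 3.69 in the 4 same-numbered pairs at 1 h and 0.93 to 1.02 in the 3 pairs at 3 h.

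Socs3 encodes an inhibitor of JAK kinases that is induced by the signal it blocks. It read 8.84, 8.51 and 8.39 in IFN-alpha cells at 3 h, against 8.55, 8.58 and 8.31 in mock cells at 3 h. At 1 h it read 10.94, 11.02, 10.78 and 10.44 in IFN-alpha cells, against 8.44, 9.00, 8.80 and 8.48 in mock cells. The 3 h groups overlapped and the 1 h groups did not. The response was 0.10 at 3 h (adjusted p 1) and 2.12 at 1 h (4.33-fold, adjusted p 3.71e-08), a change of -2.02 ± 0.23 (SE, adjusted p 8.72e-06). Of its 3 probe sets another was called with -1.59, and the remaining one had -2.39 ± 1.02 (SE) and was not called.

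The upstream windows of these transient genes are shown because each holds a GAS-like motif, TTCNNNGAA, and neither holds the ISRE-like motif GAAANNGAAA on either strand. Both are the 250 bases before the transcript start in RefSeq's GRCm38.p6 annotation, 5′ to 3′ on the gene's strand, with the motif in capitals; for Irf1, which has 2 entries, the first listed was used. The Irf1 window lies at chr11:53769764-53770013 on the plus strand, and its motif begins 90 bases before the start. The Socs3 window, which was added after its values were seen, lies at chr11:117969367-117969616 on the minus strand, and its motif begins 154 bases before the start.
Irf1: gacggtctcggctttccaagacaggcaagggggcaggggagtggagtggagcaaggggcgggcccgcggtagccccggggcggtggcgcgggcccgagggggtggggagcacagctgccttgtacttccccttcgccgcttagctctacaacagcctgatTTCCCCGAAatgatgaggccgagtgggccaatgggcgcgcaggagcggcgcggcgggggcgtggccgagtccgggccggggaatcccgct
Socs3: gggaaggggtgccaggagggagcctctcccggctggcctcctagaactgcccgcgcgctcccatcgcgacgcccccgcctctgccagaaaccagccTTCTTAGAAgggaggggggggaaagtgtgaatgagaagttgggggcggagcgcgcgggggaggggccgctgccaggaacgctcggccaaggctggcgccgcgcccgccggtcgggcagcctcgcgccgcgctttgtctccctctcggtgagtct

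Fos, part of the AP-1 transcription factor, and Bcl3, a nuclear member of the IkappaB family, met the transient definition only with the block. Fos had 8.02, 8.13 and 8.19 in IFN-alpha cells at 3 h against 8.17, 8.45 and 8.46 in mock cells at 3 h, and 9.82, 9.85, 10.22 and 10.87 in IFN-alpha cells at 1 h against 9.22, 9.18, 9.38 and 10.33 in mock cells at 1 h. The unpaired groups overlapped at 1 h, but every same-numbered pair was higher, by 0.54 to 0.84. Its change was -0.91, with a limma adjusted p of 1 without the block and 0.0175 with it. For Bcl3 the change was -0.88, with an adjusted p of 1 without the block and 0.00304 with it, and the pairs at 1 h were higher by 0.45 to 1.03.

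The early and rising genes had a median response of 6.35 at 3 h and 2.18 at 1 h. Cxcl10, a chemokine that attracts activated T cells, had 12.98, 13.00 and 13.00 in IFN-alpha cells at 3 h, against 4.13, 4.36 and 4.36 in mock cells at 3 h. At 1 h it had 9.75, 10.72, 8.93 and 10.77 in IFN-alpha cells, against 4.39, 5.45, 4.37 and 4.24 in mock cells. No IFN-alpha array came near a mock array, and the 3 h arrays lay closer together than the 1 h arrays. The response was 419-fold at 3 h and 43.1-fold at 1 h, and it grew by 3.28 ± 0.53 on the log2 scale (SE, limma adjusted p 0.000819).

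Usp18, a protease that also blocks the IFN-alpha receptor, was a feedback gene that rose at both times. Its signal was 11.53, 11.63 and 11.63 in IFN-alpha cells at 3 h against 2.87, 3.44 and 3.06 in mock cells at 3 h, and 6.20, 5.96, 4.59 and 7.14 in IFN-alpha cells at 1 h against 2.21, 2.31, 2.24 and 2.21 in mock cells at 1 h. All mock arrays were below background, so the rise was at least 194-fold at 3 h and at least 3.93-fold at 1 h. The response grew by 4.74 ± 0.47 (SE, adjusted p 1.03e-06), in the direction opposite to the other named inhibitor, Socs3. Socs1, Socs2 and Cish, relatives of Socs3, had no called change (-0.14, 0.94 and -0.91), and Socs2 was called at 3 h (1.26, adjusted p 0.00347).

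The p47 GTPases, which attack the vacuoles of intracellular pathogens, supplied 5 of the 20 early and rising genes. Irgm2 had 10.98, 11.00 and 10.72 in IFN-alpha cells at 3 h against 3.17, 3.35 and 3.41 in mock cells at 3 h, and 7.36, 7.41, 6.58 and 7.85 in IFN-alpha cells at 1 h against 2.84, 3.08, 2.89 and 3.84 in mock cells at 1 h. Both times were apart from mock on every array, and the response grew by 3.45 ± 0.40 (SE, limma adjusted p 9.08e-06). Irgm1 gained 2.19 (5.62 at 3 h, 3.43 at 1 h), Igtp 4.01 (7.75 and 3.74), Iigp1 5.24 (8.05 and 2.80) and Ifi47 4.38 (6.47 and 2.09). A second Iigp1 probe set, with a change of 5.10, was late.

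Antiviral effectors followed. Mx1, a dynamin-like GTPase that traps viral nucleoproteins, had 9.27, 9.52 and 9.14 in IFN-alpha cells at 3 h against 2.83, 2.71 and 2.72 in mock cells at 3 h, and 4.42, 6.23, 3.22 and 5.24 in IFN-alpha cells at 1 h against 2.87, 3.03, 2.75 and 2.78 in mock cells at 1 h. Replicate 3 at 1 h stayed below background while the other 3 were above it. The Mx1 response grew by 4.63 ± 0.60 (SE, limma adjusted p 4.96e-05). Ifit3, which binds viral RNA with its Ifit partners, had responses of 7.83 at 3 h and 3.67 at 1 h. Oasl2, of the oligoadenylate synthetase family, had 7.91 and 2.37, and Mx2 had 5.10 and 2.27.

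Of the other early and rising genes, Ddx58 (RIG-I, a sensor of viral RNA) had responses of 4.58 at 3 h and 1.62 at 1 h, and its change was 2.96 by its brightest probe set. Another Ddx58 probe set gave 3.09 and was late. One with a mean signal of 3.08 was called at both times (1.98 at 3 h, 2.31 at 1 h), with an uncalled change of -0.33. Among the named genes with a called change this was the only probe set of the opposite sign. Parp14, an ADP-ribosyltransferase, had 6.22 at 3 h and 1.85 at 1 h (change 4.37), while its other probe set had an uncalled change of 0.73. Slfn8 had 6.60 and 1.81, and Samd9l had 5.17 and 1.90. Helz2, a helicase, had 4.74 at 3 h and 2.26 at 1 h.

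The windows of Irgm2, chosen by rule for its small adjusted p at 1 h, and of Cxcl10, added after its values were seen, are shown as examples with the ISRE-like motif. Both come from RefSeq's GRCm38.p6 table, read on the gene's strand. The Irgm2 window lies at chr11:58214727-58214976 on the plus strand, with the GAS-like motif 75 and the ISRE-like motif 64 bases before the start. The Cxcl10 window lies at chr5:92348890-92349139 on the minus strand, with the ISRE-like motif 213 bases before the start and no GAS-like motif. Capitals mark the motifs.
Irgm2: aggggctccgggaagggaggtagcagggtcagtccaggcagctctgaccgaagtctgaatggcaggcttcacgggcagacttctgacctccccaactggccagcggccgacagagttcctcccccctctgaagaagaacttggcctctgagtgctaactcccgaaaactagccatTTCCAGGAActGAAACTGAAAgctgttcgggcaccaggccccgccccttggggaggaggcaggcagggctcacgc
Cxcl10: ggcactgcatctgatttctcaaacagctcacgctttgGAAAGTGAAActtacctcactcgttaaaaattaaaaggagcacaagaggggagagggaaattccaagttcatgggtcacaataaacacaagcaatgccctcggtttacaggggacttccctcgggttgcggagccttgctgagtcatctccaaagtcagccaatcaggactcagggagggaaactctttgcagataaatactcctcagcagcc

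In the group of 7 early genes with no called change, the lack of a call had different forms. Irf9, the DNA-binding part of the IFN-alpha transcription complex, had 8.36, 8.33 and 8.47 in IFN-alpha cells at 3 h against 4.56, 4.15 and 4.94 in mock cells at 3 h, and 6.97, 7.01, 6.84 and 7.67 in IFN-alpha cells at 1 h against 3.87, 4.53, 3.55 and 4.64 in mock cells at 1 h. Its responses of 3.84 and 2.98 differed by 0.86 ± 0.38 (SE, limma adjusted p 1). Irf9 was thus well above mock at both times, with a difference between them that was not called.

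Il6, an inflammatory cytokine, had 6.45, 6.50 and 6.70 in IFN-alpha cells at 3 h against 4.52, 5.38 and 5.08 in mock cells at 3 h, and 8.56, 9.16, 9.17 and 9.44 in IFN-alpha cells at 1 h against 6.71, 6.54, 7.47 and 7.64 in mock cells at 1 h. Both IFN-alpha and mock signals were lower at 3 h, so the responses of 1.56 and 1.99 stayed close (change -0.44 ± 0.39, SE). Map3k8, a kinase upstream of ERK, had the same form, with 0.94 at 3 h and 1.12 at 1 h (change -0.18 ± 0.27, SE).

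The other 4 of the 7 had positive but uncalled changes. Ifit1, which binds uncapped and unmethylated viral RNA, had 12.86, 12.91 and 12.73 in IFN-alpha cells at 3 h against 4.99, 5.19 and 5.21 in mock cells at 3 h, and 10.29, 11.42, 9.02 and 11.59 in IFN-alpha cells at 1 h against 4.19, 7.27, 4.40 and 4.22 in mock cells at 1 h. Mock replicate 2 at 1 h stood far above its 3 companions. The change was 2.14 ± 1.31 (SE, limma adjusted p 1). Rtp4 had a change of 2.98, Tap1 (a peptide transporter of MHC class I presentation) 2.53 and Trim25 (a ubiquitin ligase for RIG-I) 1.10, with adjusted p-values of 0.316, 0.0977 and 0.539. With the block these became 0.000516, 0.000235 and 0.000489, so these 3 counted there as early and rising, while Ifit1 did not (0.252). Other probe sets were called without the block, 1 of 2 further ones for Trim25 (1.23, adjusted p 0.0083, early and rising) and 1 for Rtp4 (3.04, adjusted p 2.81e-06, late).

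**Figure D2:**
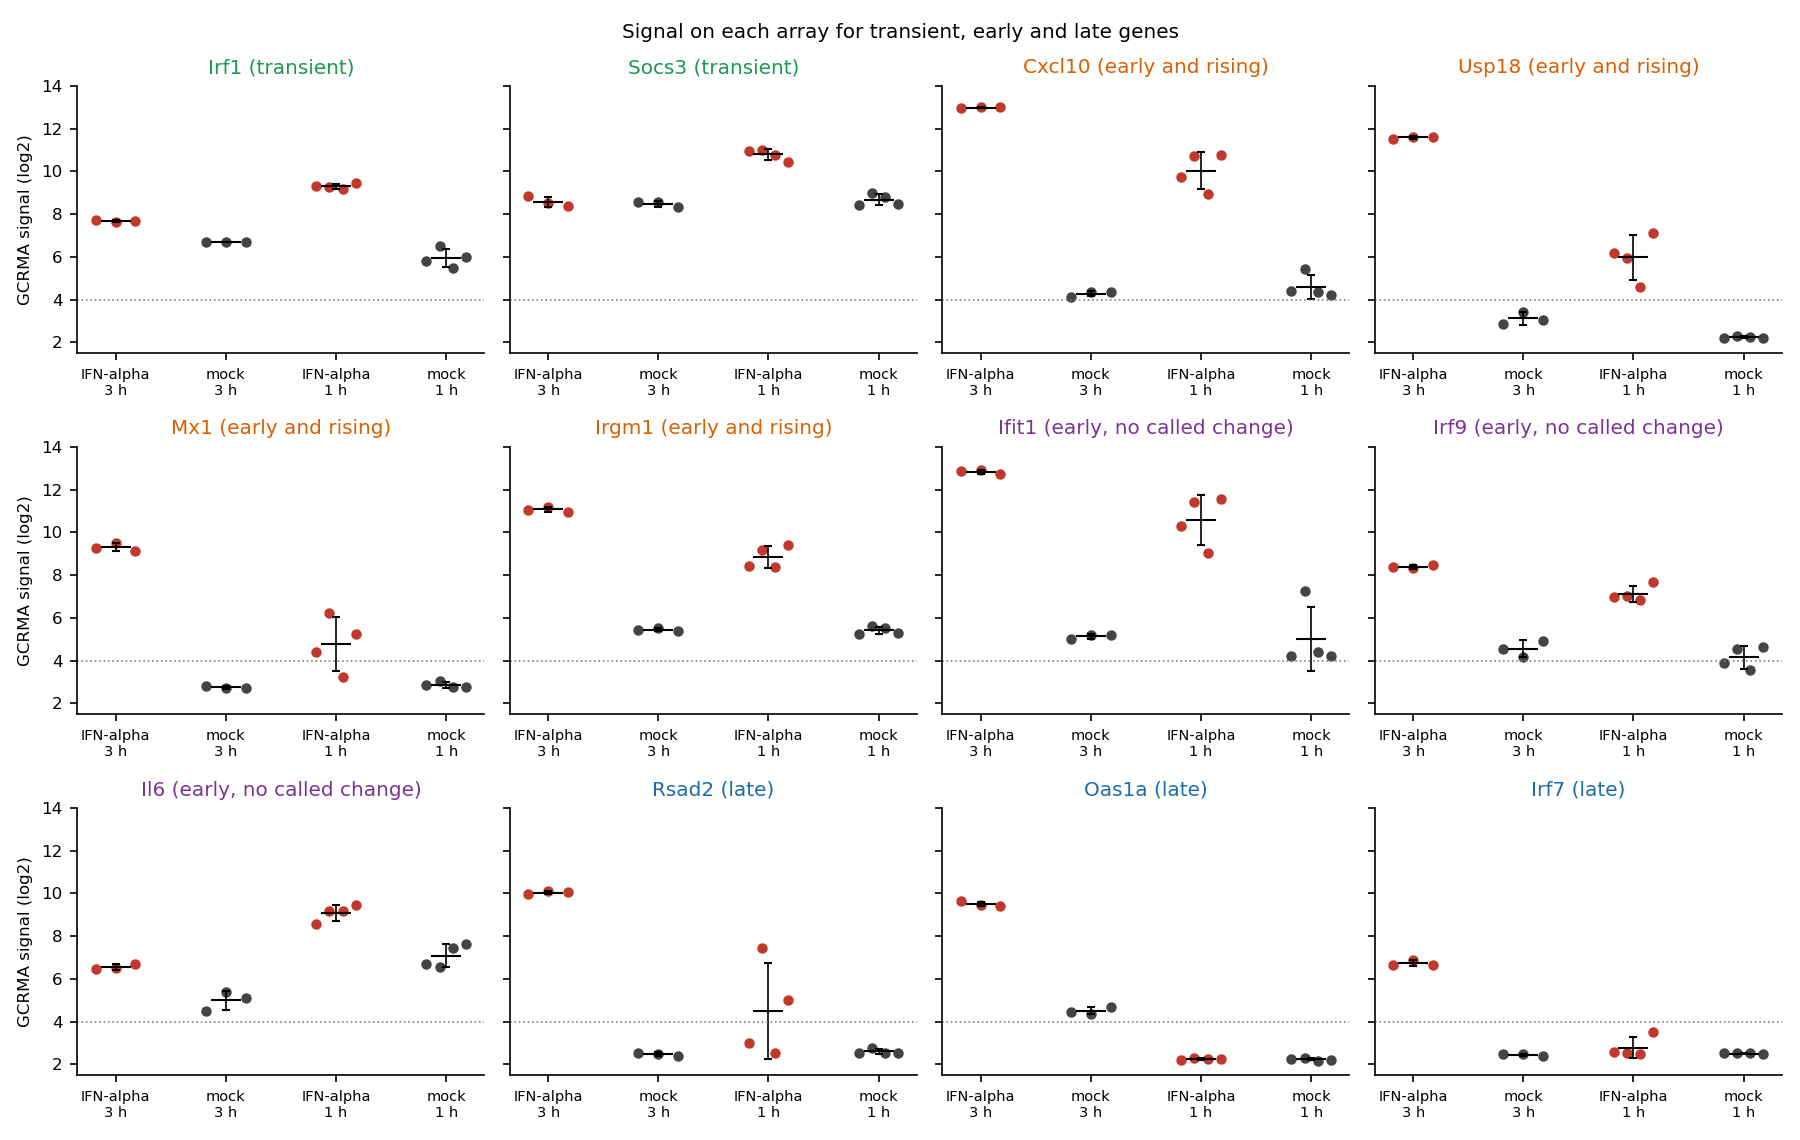
GCRMA signal (log2) on each array for 12 genes, with IFN-alpha at 3 h, mock at 3 h, IFN-alpha at 1 h and mock at 1 h from left to right. Points are arrays, bars the mean ± SD, and the dotted line marks log2 4; Irf1 and Socs3 are higher with IFN-alpha at 1 h than at 3 h, and Oas1a and Irf7 stay below 4 in IFN-alpha cells at 1 h.

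Late genes had a median response of 2.53 at 3 h and 0.19 at 1 h. Of the 84, 33 lay below log2 4 on all 4 IFN-alpha arrays at 1 h. Of these 33, 30 lay above it on all 3 IFN-alpha arrays at 3 h. Over all 9421 genes the same numbers were 196 and 66. Entry needed 3 arrays above 4 and a late gene was called higher at 3 h, so this pattern follows largely from the selection. The response at 1 h was within 0.5 of 0 for 61 of the 84 late genes and over 1 for 10. IFN-alpha and mock arrays did not overlap at 3 h for all 84 (6.21% of all probe sets) and at 1 h for 9 (0.508%). All 3 paired responses at 3 h lay above all 4 at 1 h for the 84 (4.89%), which describes genes formed from that contrast. The change ranged from 0.68 to 5.66 with a median of 2.35. Pdzd2 was at the low end of that range, and Rsad2 (viperin, which makes a chain-terminating nucleotide) at the high end.

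Rsad2 and its neighbour Cmpk2, a mitochondrial nucleotide kinase, led the late genes. Rsad2 had 9.95, 10.11 and 10.05 in IFN-alpha cells at 3 h against 2.55, 2.49 and 2.39 in mock cells at 3 h, and 3.01, 7.46, 2.54 and 5.01 in IFN-alpha cells at 1 h against 2.54, 2.78, 2.54 and 2.54 in mock cells at 1 h. At 3 h every array was high, whereas at 1 h replicates 2 and 4 were above background and replicates 1 and 3 were not. The change was 5.66 ± 0.95 (SE, limma adjusted p 0.00122), and the other 2 Rsad2 probe sets gave 4.78 and 5.68. Cmpk2 had 9.08, 9.11 and 8.66 in IFN-alpha cells at 3 h against 2.77, 2.77 and 2.75 in mock cells at 3 h, and 2.81, 4.23, 2.97 and 4.18 in IFN-alpha cells at 1 h against 2.82, 2.95, 2.84 and 2.84 in mock cells at 1 h. Its change was 5.50 ± 0.38 (SE, adjusted p 2.64e-09).

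Oas1a, which makes the 2-5A messenger that activates RNase L, was flat at 1 h. It read 9.63, 9.47 and 9.41 in IFN-alpha cells at 3 h against 4.46, 4.37 and 4.68 in mock cells at 3 h, and 2.20, 2.28, 2.26 and 2.24 in IFN-alpha cells at 1 h against 2.26, 2.29, 2.17 and 2.21 in mock cells at 1 h. The 1 h groups overlapped below background, whereas all mock arrays at 3 h were above it. The response was 32.0-fold at 3 h and its change was 4.99 ± 0.15 (SE, limma adjusted p 2.35e-15). Mock signal moved by over 1 between the times for 3 of the 84 late genes. Ifit2 was well above background in mock cells, with 7.64, 7.63 and 7.53 at 3 h and 8.26, 8.56, 8.35 and 8.46 at 1 h. With IFN-alpha Ifit2 read 10.07 on all 3 arrays at 3 h and 8.63, 8.76, 8.42 and 8.95 at 1 h, a gain in response of 2.19 ± 0.20 (SE, adjusted p 3.82e-07). Ifit1bl1, an Ifit relative, gained 5.13.

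Of 13 sensors of nucleic acids tested, 5 were late, 1 (Ddx58) was early and rising, 1 was called at 3 h with unsettled timing and 6 were not called. Ifih1 (MDA5, a sensor of long double-stranded RNA) had 6.99, 7.16 and 6.96 in IFN-alpha cells at 3 h against 2.38, 2.40 and 2.40 in mock cells at 3 h, and 2.35, 2.82, 2.38 and 2.39 in IFN-alpha cells at 1 h against 2.62, 2.57, 2.42 and 2.42 in mock cells at 1 h. Its response was at least 8.19-fold at 3 h, and at 1 h all arrays were below background (change 4.66 ± 0.22, SE, limma adjusted p 6.69e-12). Dhx58 (LGP2) gained 4.37, Tlr3 4.09 and Zbp1, a sensor of Z-form nucleic acids, 3.89. The 6 sensors that gained compare with 1.10% of all genes.

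Guanylate-binding proteins, the p65 GTPases, were late without the block by their brightest probe sets. Gbp2 had 11.71, 11.67 and 11.41 in IFN-alpha cells at 3 h against 6.54, 6.53 and 6.21 in mock cells at 3 h, and 7.49, 9.25, 7.02 and 8.59 in IFN-alpha cells at 1 h against 6.53, 7.79, 6.82 and 6.98 in mock cells at 1 h. The unpaired groups overlapped at 1 h, yet each same-numbered pair was higher, by 0.20 to 1.61. The change of 4.11 ± 0.59 (SE) had a limma adjusted p of 0.000158. The 1 h response of 1.06 had an adjusted p of 1 without the block and 0.0105 with it, which moved Gbp2 to early and rising. Gbp3 and Gbp7 moved in the same way, with changes of 4.32 and 4.88 and blocked adjusted p-values at 1 h of 0.00132 and 0.0249. Gbp6, with a change of 5.12, and the GTPase Gm4951, with 4.37, stayed late. The other Gbp6 probe set, with a change of 5.12, was early and rising without the block (1.26 at 1 h, adjusted p 0.0372).

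Ubiquitin-like modifiers, ubiquitin ligases and PARP proteins gave 13 gains among 15 genes tested, beside 1.10% of all genes. Herc6, a ligase that attaches a ubiquitin-like protein in mouse cells, had 8.47, 8.57 and 8.26 in IFN-alpha cells at 3 h against 2.89, 3.33 and 3.21 in mock cells at 3 h, and 3.22, 3.25, 3.10 and 3.78 in IFN-alpha cells at 1 h against 3.33, 3.11, 3.31 and 3.32 in mock cells at 1 h. Only the IFN-alpha arrays at 3 h were above background, and the change was 5.22 ± 0.29 (SE, limma adjusted p 1.19e-10). Rnf213, Trim30a and Parp9 gained 3.83, 4.16 and 3.57, and with the block all were called at 1 h as well, with adjusted p-values of 0.00112, 0.0186 and 0.000963.

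Among the pathway's own factors, Irf7, which drives further IFN-alpha genes, had 6.64, 6.89 and 6.65 in IFN-alpha cells at 3 h against 2.47, 2.48 and 2.37 in mock cells at 3 h, and 2.57, 2.51, 2.50 and 3.51 in IFN-alpha cells at 1 h against 2.51, 2.51, 2.51 and 2.49 in mock cells at 1 h. Replicate 4 at 1 h was the highest of its group and still below background. The change was 4.02 ± 0.25 (SE, limma adjusted p 7.06e-10). Stat2 gained 3.30 ± 0.61 (SE, adjusted p 0.00396), with responses of 4.40 at 3 h and 1.10 at 1 h. Of 13 receptor, kinase and STAT genes Stat2 was the only one with a called change, and Irf9, Jak2 and Ifngr2, the next by size, had 0.86, 0.72 and -0.65 without a call. Of 8 interferon regulatory factors Irf7 gained and Irf1 lost, and Irf2, a repressor of IFN genes, had 1.32 (adjusted p 0.234 without the block, 0.0293 with it). Over all genes 1.10% gained and 0.0318% lost without the block.

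MHC class I genes gained in 2 of 14 cases, beside 1.10% of all genes, and in 10 with the block, beside 2.37%. Psmb9, an immunoproteasome subunit, gained 3.03 ± 0.46 (SE, limma adjusted p 0.000346) and Nlrc5, the transactivator of MHC class I genes, 2.55 ± 0.17 (SE, adjusted p 1.49e-09). Nlrc5 had 4.83, 5.15 and 4.74 in IFN-alpha cells at 3 h, and every other array of the contrast lay between 2.35 and 2.39. Psmb10, a second subunit, had 8.69, 8.74 and 8.55 in IFN-alpha cells at 3 h against 6.43, 6.30 and 6.20 in mock cells at 3 h, and 5.99, 3.49, 5.96 and 6.50 in IFN-alpha cells at 1 h against 5.99, 4.22, 5.75 and 5.82 in mock cells at 1 h. Replicate 2 was low in both 1 h groups. Its change of 2.31 had an adjusted p of 0.97 without the block and 1.81e-05 with it.

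Chemokines and cytokines gained in 2 of 14 cases, Cxcl10 and Il15, a growth factor of natural killer cells (2.36 ± 0.33, SE, limma adjusted p 0.000147). With the block 4 gained and 1, Il11, lost. Over all genes 1.10% gained without the block, and with it 2.37% gained and 0.202% lost. Ccl2, which attracts monocytes, had 11.55, 11.52 and 11.51 in IFN-alpha cells at 3 h against 9.26, 9.22 and 9.28 in mock cells at 3 h, and 12.29, 10.57, 12.17 and 12.17 in IFN-alpha cells at 1 h against 12.02, 10.18, 11.71 and 11.82 in mock cells at 1 h. Replicate 2 was the low array of both 1 h groups, and each pair at 1 h was higher by 0.27 to 0.46. Every mock array at 3 h lay below every mock array at 1 h, while the IFN-alpha arrays at 3 h lay within the range of those at 1 h. The Ccl2 change of 1.91 had an adjusted p of 1 without the block and 2.44e-08 with it. Ccl7 had 1.30, with an adjusted p of 0.0313 under the block.

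Nuclear body and cell death genes gained in 4 of 12 cases, beside 1.10% of all genes, and in 9 with the block, beside 2.37%. Sp100, a nuclear body protein, had 6.92, 6.99 and 6.71 in IFN-alpha cells at 3 h against 2.71, 2.90 and 3.12 in mock cells at 3 h, and 2.69, 2.79, 2.66 and 2.68 in IFN-alpha cells at 1 h against 2.72, 2.77, 2.70 and 2.72 in mock cells at 1 h. The 1 h groups overlapped below background, and the change was 3.99 ± 0.17 (SE, limma adjusted p 1.08e-12). Phf11d gained 4.54 and Daxx, a histone chaperone of nuclear bodies, 2.17. Xaf1 (3.27) and the death receptor Fas (0.88) had called responses at 3 h without a called change, and with the block Xaf1 became early and rising and Fas late. The other Xaf1 probe set was late without the block (3.19, adjusted p 3.11e-06).

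**Figure D3:**
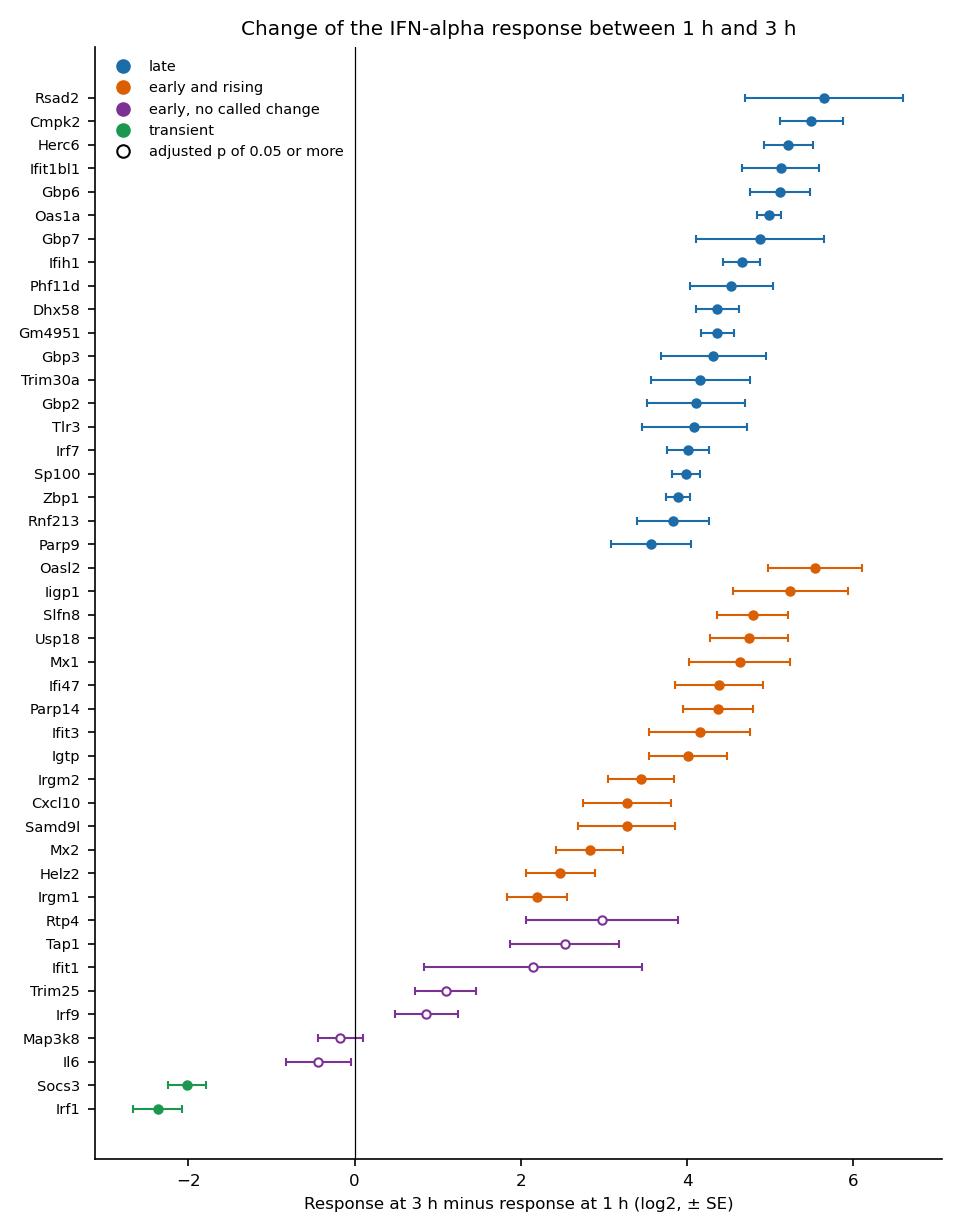
Response at 3 h minus response at 1 h (x axis, log2, ± SE) for the 20 leading late genes and the named early and transient genes, 1 row per gene, coloured by response type; open symbols were not called. Late and early and rising genes overlap in size, and only Irf1 and Socs3 are called below 0.

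Upstream windows of Oas1a and Sp100, the late genes chosen by rule, are shown because one holds ISRE-like motifs and the other holds neither motif. The Oas1a window lies at chr5:120907526-120907775 on the minus strand, with overlapping ISRE-like motifs 20 and 14 bases before the start and a GAS-like motif 98 bases before it. The Sp100 window lies at chr1:85649738-85649987 on the plus strand and is the first of 2 entries. Both are from RefSeq, GRCm38.p6, with motifs in capitals.
Oas1a: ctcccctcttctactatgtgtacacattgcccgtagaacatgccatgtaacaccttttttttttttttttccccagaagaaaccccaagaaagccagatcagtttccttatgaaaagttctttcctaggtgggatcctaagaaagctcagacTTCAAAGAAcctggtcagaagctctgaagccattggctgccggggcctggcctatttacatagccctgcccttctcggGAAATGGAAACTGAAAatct
Sp100: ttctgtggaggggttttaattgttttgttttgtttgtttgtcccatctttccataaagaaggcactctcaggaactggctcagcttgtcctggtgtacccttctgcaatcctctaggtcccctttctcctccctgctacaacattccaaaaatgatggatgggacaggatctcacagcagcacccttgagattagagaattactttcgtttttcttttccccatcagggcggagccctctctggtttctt

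Over windows of 300 bases (250 before and 50 after the start), the ISRE-like motif GAAANNGAAA, on either strand, was present in 9 of 14 early and rising genes with a window (64.3%), 21 of 67 late genes (31.3%), 8 of 51 with unsettled timing (15.7%), 1 of 5 early with no called change and 0 of 2 transient. Among all 7724 genes tested that have a window it was present in 279 (3.61%). The GAS-like motif TTCNNNGAA, which reads the same on both strands, was present in 3 (21.4%), 10 (14.9%), 6 (11.8%), 0 and 2 of the same gene groups, against 607 of all genes (7.86%). In all 32851 windows the shares were 3.44% and 8.30%. The 2 kinds of motif overlapped in the window of 1 late gene and 2 genes with unsettled timing. A match is a description of letters, not of binding.

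The 1 h arrays of IFN-alpha cells were uneven. Over the early and rising genes the median response of same-numbered arrays was 2.01, 2.86, 1.41 and 2.84 for replicates 1 to 4, and over the late genes 0.12, 0.19, 0.03 and 0.37. Of the 84 late genes 18 had a paired response over 1 in replicate 4, 15 in replicate 2, 6 in replicate 1 and 2 in replicate 3. At 3 h the medians were 6.29, 6.43 and 6.21 for early and rising genes and 2.59, 2.61 and 2.45 for late genes. The replicates thus lay closer together at 3 h. Replicate 2 of mock at 1 h also held the highest mock value for 38 of the 84 late genes and 14 of the 20 early and rising genes. Without the 1 h arrays with low 5′ actin signal, the response grew for 218 probe sets and shrank for 7, and 175 of the 184 calls were kept. The part of RNA quality in the spread was not tested.

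By gene list, 21 of 30 antiviral effectors gained, 28 were higher at 3 h and 10 at 1 h, beside 1.10%, 1.79% and 0.308% of all genes tested. With the block 27 gained, beside 2.37% of all genes. Their median change was 2.79, beside -0.06 over all genes. All 11 GTPases tested gained, with a median change of 4.32, and 5 were called at 1 h. Ubiquitin-like and PARP genes had a median change of 3.19. Feedback inhibitors gained once (Usp18) and lost once (Socs3) among 13 tested, and had a median change of -0.07. Members of families such as Gbp, Ifit, Oas1, Slfn and Irgm are close in sequence, so a probe set may read more than 1 of them. These lists were written with earlier results of these data known.

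The remaining lists held few or no called changes. Of 17 NF-kB targets 0 had a called change by limma (2 at an unadjusted p under 0.05), and with the block 2 gained and Bcl3 lost. Over all genes 2.37% gained and 0.202% lost with the block. Vcam1, an adhesion molecule, had 0.73, with a blocked adjusted p of 0.0266. Among 35 serum immediate early genes 0 were called (1 at an unadjusted p under 0.05), and Fos was the only one with the block. Egr1 had responses of -0.02 at 3 h and 0.14 at 1 h, and Klf4 had a change of 0.74 that was not called. The 13 p53 targets, 19 stress, 24 cell cycle, 20 matrix and 11 housekeeping genes had 0 called changes by limma. At an unadjusted p under 0.05 they had 2, 1, 0, 0 and 0, beside 453 of all 19305 probe sets. With the block 1 p53 target, Fas, gained, and the other 4 lists stayed at 0. Median changes of these 5 lists lay between -0.21 and -0.04. Btg2, an antiproliferative gene, had -1.13 ± 2.10 (SE), with 1 h signals from 5.52 to 10.77 in IFN-alpha cells and 3.66 to 10.70 in mock cells, so no change could be resolved.

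**Figure D4:**
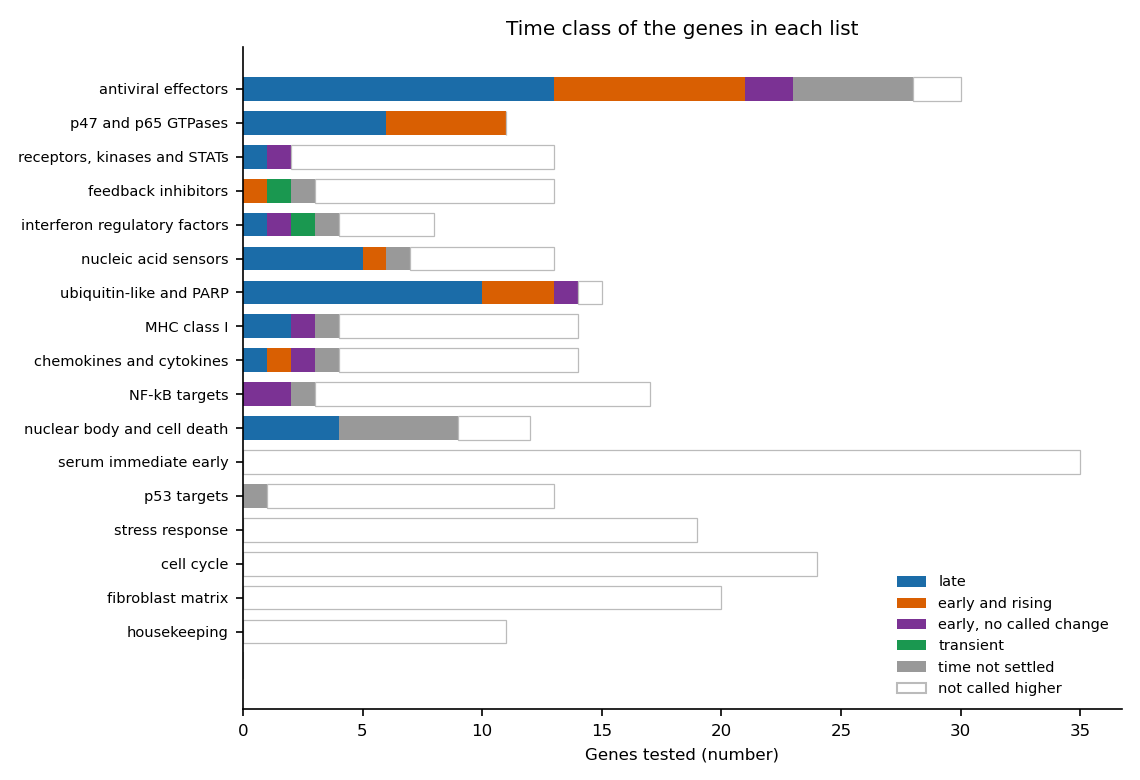
Number of genes tested in each list (x axis), split by response type; white is the number not called higher at either time. Antiviral effectors, GTPases and ubiquitin-like and PARP genes are mostly late or early and rising, and serum, stress, cell cycle, matrix and housekeeping lists are white.

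Without the block only 1 gene, Zfp40, met the late definition in the downward direction. With the block 9 genes did, Zfp40 among them, and 34 of 9421 genes (0.361%) were lower at 3 h. Zfp40, a zinc finger gene, had 3.48, 3.38 and 3.27 in IFN-alpha cells at 3 h against 4.10, 4.50 and 4.23 in mock cells at 3 h, and 3.15, 3.57, 3.16 and 3.14 in IFN-alpha cells at 1 h against 3.16, 3.28, 3.26 and 3.27 in mock cells at 1 h. Only the mock arrays at 3 h were above background. The change was -0.91 ± 0.20 (SE, limma adjusted p 0.0171). The call was lost in 3 of the 14 fits that left out 1 array each, where the largest adjusted p was 0.0975, and also with only the compared arrays, with values below 4 set to 4 (change -0.27) and with array weights.

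Some genes with called responses lay next to each other among the tested genes, and how many would do so by chance was not tested. The order was that of 9406 tested genes with a position in RefSeq's GRCm38.p6, so untested genes may lie between neighbours. Of 170 genes with called responses 54 stood in 22 runs of such neighbours, and 8 runs held 3 or more. Without the block, the runs Gbp7-Gbp3-Gbp2b-Gbp2, Oas2-Oas1b-Oas1a, Ifi207-Ifi204-Ifi202b and Trim12c-Trim30a-Trim30d held late genes only. The runs Ifit2-Ifit3-Ifit1bl1-Ifit1, Parp14-Dtx3l-Parp9, Slfn9-Slfn8-Slfn2 and Gm4951-Iigp1-BC023105 mixed types. In the Ifit run, for example, Ifit2 and Ifit1bl1 were late, Ifit3 early and rising, and Ifit1 early with no called change. With the block Gbp7, Gbp3, Gbp2, Ifi202b, Trim30a, Dtx3l and Parp9 became early and rising. Of the late-only runs just the Oas run then stayed so, and Parp14-Dtx3l-Parp9 no longer mixed types.

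The time course of the IFN-alpha response was then set against that of IFN-gamma, a contrast in which the mock arrays cancel. The change between the times was larger with IFN-alpha for 64 probe sets (0.332%) and smaller for 42 (0.218%); with the block the counts were 198 and 231. Rsad2 had 9.95, 10.11 and 10.05 in IFN-alpha cells at 3 h against 2.60, 2.54 and 2.53 in IFN-gamma cells at 3 h, so its change was larger with IFN-alpha by 5.61 ± 0.95 (SE, limma adjusted p 0.00305). Cmpk2 differed by 5.02, Ifit1bl1 by 4.87, Mx1 by 4.57 and Oas1a by 3.65. For Rsad2, Cmpk2, Ifit1bl1 and Mx1 all IFN-gamma arrays lay below background at both times. Irf7, at 3.50, belonged to the same side.

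On the other side, Cd274 (PD-L1, an inhibitor of T cells) had 5.52, 5.32 and 5.95 in IFN-alpha cells at 3 h against 7.99, 8.06 and 8.40 in IFN-gamma cells at 3 h, and 3.34, 3.37, 3.14 and 4.51 in IFN-alpha cells at 1 h against 3.13, 4.03, 2.88 and 3.72 in IFN-gamma cells at 1 h. The 1 h groups overlapped and the 3 h groups did not, a contrast of -2.69 ± 0.40 (SE, limma adjusted p 0.000552). BC023105, a GTPase-like gene next to Iigp1 among the tested genes, had -3.30, Apol6 -2.35, AA467197 -2.84 and Zbtb7c -2.52. Zbtb7c had no called change with IFN-alpha (0.02, adjusted p 1), and its IFN-alpha signal was between 2.06 and 2.30 on every array. The called increase of AA467197 with IFN-alpha (1.13, adjusted p 0.0492) was lost in 13 of the 14 fits without 1 array.

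Irf1 and Socs3 also differed between the interferons. Irf1 had 11.11, 11.26 and 11.37 in IFN-gamma cells at 3 h and 11.33, 10.81, 11.10 and 11.74 at 1 h, beside the IFN-alpha values given above. The change of Irf1 was -2.37 with IFN-alpha and -0.74 with IFN-gamma, a contrast of -1.63 ± 0.29 (SE, limma adjusted p 0.006). For Socs3 the changes were -2.02 with IFN-alpha and -0.95 with IFN-gamma, a contrast of -1.07 ± 0.23 (SE, adjusted p 0.034). In words, both genes lost more of their IFN-alpha response than of their IFN-gamma response between 1 h and 3 h. Cxcl10, Irgm1 and Irf9 had contrasts of 0.28, -0.15 and -0.05 with SEs of 0.53, 0.36 and 0.38, and none was called.

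**Figure D5:**
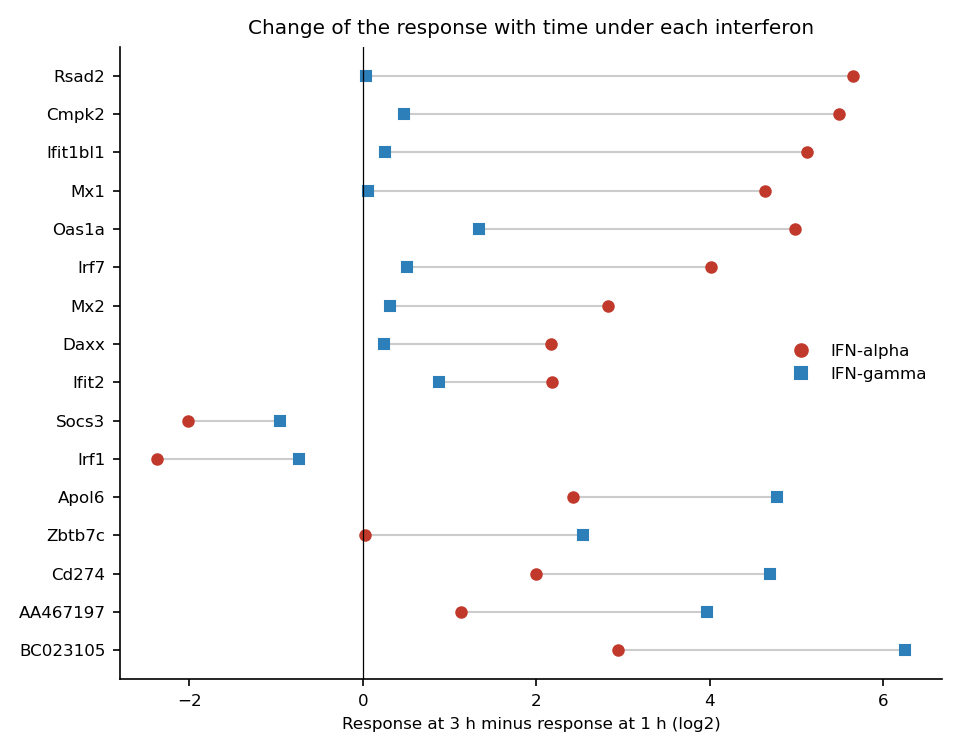
Response at 3 h minus response at 1 h (x axis, log2) with IFN-alpha (circles) and IFN-gamma (squares) for 16 genes, ordered by the difference between the interferons. Rsad2, Cmpk2, Ifit1bl1 and Mx1 moved with IFN-alpha and stayed within 0.48 of 0 with IFN-gamma, and BC023105, AA467197, Cd274, Zbtb7c and Apol6 lie farther right with IFN-gamma.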

How the data were processed

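Total RNA was measured on 24 one-colour Affymetrix arrays. The authors deposited log2 values made with GCRMA, per the submitters' processing notes; its version, and whether all arrays shared a run, are not given in the sources used here. The number of arrays limits the precision. From 45101 probe sets 64 controls were left out. Of the 45037 others, the platform annotation gives 34945 a single gene symbol, 932 several and 9160 none; symbols were updated through RefSeq (GRCm38.p6) for 34741. Probe sets above log2 4 on at least 3 arrays were kept; the third-highest value was 4.00 for Pibf1 and Zbtb4 just inside and 3.9995 for Tnfrsf23 just outside.

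One model with a mean for each of the 7 groups was fitted in limma 3.58.1 under R 4.3.3 (lmFit, then eBayes), leaving 17 degrees of freedom. Two-sided p-values were adjusted by Benjamini-Hochberg over the 19305 probe sets and called under 0.05. The fit was tested on simulated data with independent noise and a single spread per probe set over all groups. That test therefore says nothing about the unequal spread between the times or the pairing of arrays. The p-values reflect only how far these arrays scatter, and that scatter may be technical. Where the lower group's mean was below 4, its arrays below 4 were raised to 4 and the fold written "at least". Members, lists, named genes and tests were chosen with earlier results of these data known.

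Named genes were the 20 late genes with the largest change, up to 15 of each other type by their 1 h difference, up to 8 negative changes, up to 4 members of each of 19 lists by size of change, 5 in each direction for IFN-alpha against IFN-gamma, and a fixed set; other genes were named after their values were seen. Same-numbered arrays of the 3 groups at each time (IFN-alpha, IFN-gamma, mock) deviated together (correlations of 0.46 to 0.91 at 1 h and 0.13 to 0.65 at 3 h), so the numbers pair the arrays and a fit with the number within time as a block was added. The 1 h mock arrays without 4sU were left out of that fit, since their correlations with same-numbered arrays were 0.57 to 0.80 for replicate 1 and 0.37 for replicate 2 but -0.21 to 0.08 for replicate 3. At least 1 gene is not reported here because it is withheld.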

Additional observations from a re-analysis of the deposited data

Results flagged for a closer look

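The response differed between 3 h and 1 h for 184 probe sets, and its change over time differed between IFN-alpha and IFN-gamma for 106, both by limma. Of 188 groups of 4 arrays (94 named genes at 1 h), 28 held an array far from its companions by Dixon's 95% criterion. Chance alone marks about 1 in 20 groups if they are independent with normal scatter, but these groups share arrays. Many of the flagged values lay below log2 4, where signals give no order. Of the 28, 14 were in mock replicate 2 and 3 in IFN-alpha replicate 2. Both arrays had low 5′ actin signal, with actin 3′ minus 5′ gaps of 2.99 and 3.09. Mock replicate 2 was the highest for Rsad2 (2.78), Cmpk2 (2.95), Gbp7 (4.39), Phf11d (4.27), Ifit1 (7.27), Cxcl10 (5.45), Iigp1 (3.83), Oasl2 (2.87) and Slfn8 (3.28), and the lowest for Herc6 (3.11), Psmb9 (3.24), Psmb10 (4.22), Ccl2 (10.18) and Cdc25c (6.12). IFN-alpha replicate 2 was the highest for Ifih1 (2.82) and Zfp40 (3.57) and the lowest for Ccl2 (10.57). IFN-alpha replicate 4 was the highest for Irf7 (3.51), Cd274 (4.51), Apol6 (2.97) and Socs2 (4.34), and IFN-alpha replicate 1 for Sesn2 (6.55). Mock replicate 4 was the highest for Trim30a (5.06), Zbtb7c (2.32) and Fos (10.33). Mock replicate 1 was the lowest for Zfp40 (3.16) and Socs2 (3.19), and mock replicate 3 for Cd274 (2.42). The cause was not tested.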

How the results depend on the processing

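Counts here are probe sets. With the replicate number as a block, the change of the response was called for 389, the 1 h response for 135, the 3 h response for 591 and the difference from IFN-gamma for 429. Response types then held 269 late, 77 early and rising, 9 transient and 174 with unsettled timing. The block leaves the size of each difference as it was and alters only its error, so it could not reverse a call. With the block and the 1 h arrays of low 5′ actin signal left out, chosen after seeing the data, these counts were 375, 88, 648 and 379, with 276, 61, 9 and 210 by type. Leaving out those arrays alone moved the unsettled count to 148. Fitting only the arrays of the groups compared gave 14 at 1 h, 506 at 3 h, 20 early and rising and 66 for the difference from IFN-gamma. Values below 4 set to 4 gave 161 for the difference from IFN-gamma. Array weights per time gave 775 at 3 h and 381 unsettled. For Ddx58 another probe set reversed the change to -0.33. With mock cells without 4sU as the 1 h control, the change was called for 199; 2 of those 3 arrays had actin 3′ minus 5′ gaps of 2.22 and 3.31. Leaving out 1 array at a time gave 161 to 188 for the change and 38 to 63 for the 1 h response. The cause of these shifts was not tested. The 1 h arrays carry the larger spread, and signals below 4 give no order.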

Other observations

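Genes outside the lists also changed. Among late genes not in any list, Tent5a gained 2.89, Apol7a 2.66, Apod 2.62, Plscr2 2.60, Tdrd7 2.11, Plac8 2.03 and Bank1 1.94 on the log2 scale, each called by limma. They were chosen after their values were seen, and Apod encodes a secreted lipid carrier, Tdrd7 a tudor-domain protein and Plscr2 a relative of the phospholipid scramblases. Under the block Erap1, which trims peptides for MHC class I, and Eogt, a glycosyltransferase, were lower in IFN-alpha than in mock cells at 1 h (differences of -0.48 and -0.67, blocked adjusted p 0.0297 and 0.00356), and their responses then increased by 0.96 and 0.70 (blocked adjusted p 0.000857 and 0.0265). Neither was called without the block. With the block 15 probe sets in all were called lower at 1 h. When the 1 h arrays with low 5′ actin signal were left out as well, 2 were.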
